A study of Mus musculus with 43 samples.

Results

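Polyamine enzymes and their regulators were followed in a pooled CRISPR knockout screen of mouse CD8+ T cells. The members were all library rows whose gene was on a list of 14 symbols for polyamine and hypusine synthesis, a list drawn up by function. Of these, 9 had rows (*Odc1*, *Azin2*, *Agmat*, *Amd1*, *Srm*, *Sms*, *Sat1*, *Sat2* and *Smox*), each with 5 sgRNAs, which made 45 of the 10640 sgRNAs and 9 of the 2078 genes of the library. *Amd2*, *Azin1*, *Paox*, *Dhps* and *Dohh* were not analysed here. Both hypusine enzymes are among them, so the results concern polyamines only.

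Putrescine, spermidine and spermine are small polycations that bind nucleic acids and are needed for cell growth. Ornithine decarboxylase makes putrescine, and spermidine synthase and spermine synthase then each add an aminopropyl group, which comes from decarboxylated S-adenosylmethionine. Acetyltransferases and oxidases run the pathway backwards, and activated T cells switch on ornithine decarboxylase as they start to divide.

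The cells were OT-I T cells, whose T cell receptor recognises a peptide of ovalbumin, from Cas9 knock-in mice. They carried the lentiviral metabolic sgRNA library and were chosen by its CD90.1 marker. A sample taken on the day of transfer (day 0, called T0, 3 libraries) was the start point. The rest were injected into mice with KPC_OVA tumours, a pancreatic cancer line made to express ovalbumin and placed in the pancreas of Cas9 mice, and were sorted after 7 days from 7 organs of animals given anti-PD-1 or control IgG from the day of transfer. Primary tumour, lung, spleen, draining lymph nodes and nondraining lymph nodes had 3 libraries for each treatment. Liver had 2 under IgG and 1 under anti-PD-1, and peritoneal metastases had 2 under IgG and 3 under anti-PD-1. A library titled as peritoneal metastases (anti-PD-1 replicate 2) bears the tissue label of spleen, and it was kept with its title. All cells of every group, T0 included, carried Cas9 and a library sgRNA, and the comparison within a library was with 250 nontargeting sgRNAs. The antigen was foreign to the tumour, and the methods give a high multiplicity of infection, so a cell may have held several sgRNAs.

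A gene's value is the mean of log2(signal + 1) over its 5 sgRNAs minus the median of the nontargeting sgRNAs in the same library, and a change is a difference of such values, so that -1 is a loss of relative abundance by a factor of 2 where signals are well above 1. At the lowest signals this scale understates a change. Tests were by limma with Benjamini-Hochberg adjustment over all 2078 genes. The labels call the libraries biological replicates without naming animals or cultures, so p-values measure the spread between these libraries. All comparisons with T0 share its 3 libraries. Signals summed to between 1788300 and 4228882 per library. The read depth behind them is unknown, since the deposited values are normalised. Within a replicate number, an sgRNA's lowest value was called its shared lowest signal where another library of that number had it too. The share of member values at this level was 0% at T0, 2.89% in primary tumour, liver, peritoneal metastases and spleen (26 of 900), 18.5% in lung (50 of 270) and 66.1% in lymph nodes (357 of 540). A value at that level has no order below it, so the lung and above all the lymph node values are the least certain, and lymph nodes are described separately.

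The spacer sequences of the screen's own 45 sgRNAs are not printed here. For *Azin2*, the member that differed between treatments outside lymph nodes, the study later designed a separate set of sgRNAs for a single-cell experiment. These are shown because they place the edited gene. No value given here was measured with them, and the study put *Azin2* in that set on the strength of these same libraries, so its presence there is no independent evidence. Lower case marks the spacer and capitals mark the PAM next to it, read 5′ to 3′ on the targeted strand of GRCm38.p6.
Azin2_gRNA1: ggcctatgcccagtccatcgCGG
Azin2_gRNA2: caaggctgagttaattactgAGG
Azin2_gRNA3: tctgtgcaacttgcttacagGGG
The first spacer lies at chr4:128948905-128948924 on the minus strand, the second at chr4:128947592-128947611 and the third at chr4:128950691-128950710, both on the plus strand. Each had 1 exact match in the genome, next to an NGG PAM and in a coding exon of *Azin2*, which is read from the minus strand.

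Averaged over the 10 groups outside lymph nodes (primary tumour, lung, liver, peritoneal metastases and spleen under both treatments), sgRNAs against *Amd1*, which encodes S-adenosylmethionine decarboxylase, the source of the aminopropyl donor, were lost. The change from T0 was -1.76 (SE 0.62, 26 libraries against 3, adjusted p = 0.0448). It was the 1 member of 9 that passed the test, where 17.7% of all genes were lower (368 of 2078). No member rose, against 0.192% of all genes, and *Amd1* was also the 1 member with an unadjusted p under 0.05. The median change of the members was -0.42 and that of all genes -0.55, so the members together did not lie below the library. By role, the median was -1.17 for the 3 genes of spermidine and spermine synthesis, -0.41 for the 3 genes that supply putrescine, and -0.23 for the 3 genes of acetylation and oxidation.

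*Amd1* at T0 stood at 0.30, 0.11 and 0.52 in replicates 1, 2 and 3. In primary tumour the values were -1.29, -1.22 and -2.20 under IgG and -0.89, -0.69 and -1.52 under anti-PD-1. In spleen they were -0.03, -1.06 and -1.61 under IgG and -1.39, 0.69 and -0.98 under anti-PD-1. Of these, spleen anti-PD-1 replicate 2 alone was not below T0. In peritoneal metastases the values were -1.22 and -1.12 under IgG and -1.20, -3.46 and -0.84 under anti-PD-1, of which the lowest is the library whose tissue label reads spleen. In liver they were -1.15 and -1.85 under IgG and -0.88 under anti-PD-1. Lung held the widest spread, with -4.67, -3.04 and -1.20 under IgG and -0.76, -1.06 and -4.29 under anti-PD-1. In all, 25 of the 26 libraries lay below every T0 library for *Amd1*, and at least 25 did so for 18.5% of all genes.

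The 5 *Amd1* sgRNAs all went down, by -2.09, -1.21, -1.40, -2.20 and -1.88 in the mean of the 10 groups. Of all sgRNAs of the library, 78.1% were lower there. As single sgRNAs none of the 5 passed the test (adjusted p = 0.507 for the smallest), and the loss is thus a call on the mean of 5 that moved alike. The most abundant of them at T0 (s_00258) had signals of 507 to 737 there and a median of 168 over the 26 libraries. It was below every T0 library in 22 of 26. The least abundant (s_00259) went from 113 to 239 at T0 to a median of 38.7. It was at the shared lowest signal in 6 of 26 libraries.

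The *Amd1* call was close to the threshold. With each of the 29 libraries left out in turn it was lost in 15 cases, with changes between -1.86 and -1.65 and adjusted p between 0.0507 and 0.211. These were each T0 library, replicates 1 and 3 of both primary tumour groups, IgG replicates 2 and 3 and anti-PD-1 replicates 1 and 3 of spleen, both peritoneal metastases IgG libraries, lung IgG replicate 2 and liver IgG replicate 3. Without both lung groups it was -1.49 (adjusted p = 0.0225). It was also lost in 7 of the other settings, with the sgRNA median (adjusted p = 0.655), all libraries in 1 fit (0.299), centring on the median of all sgRNAs (0.187) or on the nontargeting mean (0.145), the lowest 10% of sgRNAs left out (0.0982), lowest values set to 0 (0.0684) and the replicate number as a block (0.0575). The change stayed negative in each, between -1.81 and -1.35. *Amd1* also has a near-identical copy in the mouse genome. *Amd2*, a gene with 1 coding exon, has a coding sequence of 1005 bases, the same length as that of *Amd1* with its 8 coding exons, and 1004 of these bases are identical (99.9%) in GRCm38.p6. Of the 80 sites of 20 bases and an NGG PAM in the coding exons of *Amd1*, 72 are also in *Amd2* (90%). Whether the library's *Amd1* sgRNAs cut both was not tested.

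*Srm*, spermidine synthase, was the next lowest member in the mean of the 10 groups, at -1.17 (SE 0.61, 95% interval -2.43 to 0.08, adjusted p = 0.278). Its T0 values were 0.37, -0.08 and 0.23. It lay below all of them in 21 of 26 libraries (at least 21 for 31.6% of all genes), and the groups differed in their spread. In primary tumour it was at -0.96, -1.41 and -1.03 under IgG and at -0.57, -0.13 and -1.70 under anti-PD-1. In spleen it was at -1.94, -0.35 and -1.13 under IgG and at -0.29, -3.63 and -1.85 under anti-PD-1. Both organs thus stayed below T0 in every library. In liver it was at 0.48 and -0.40 under IgG and -0.77 under anti-PD-1, and in peritoneal metastases at 0.24 and -0.06 under IgG and -0.17, -0.71 and -0.65 under anti-PD-1. In those 2 organs the IgG values overlapped with T0. All 5 *Srm* sgRNAs were lower, from -2.56 to -0.58. The strongest (s_03470) went from signals of 138 to 202 at T0 to a median of 33. *Sms*, spermine synthase, which acts after *Srm*, stood at -0.42 (SE 0.38, adjusted p = 0.578), with 4 of 5 sgRNAs lower between -0.96 and 0.05. Over this synthetic branch, 14 of 15 sgRNAs were lower, where 78.1% of all sgRNAs of the library were.

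Among the genes that supply putrescine, *Odc1*, ornithine decarboxylase and the first enzyme of the pathway, stood at -0.60 (SE 0.40, 95% interval -1.43 to 0.22, adjusted p = 0.445), close to the median of all genes. Its T0 libraries were tight, at 0.26, 0.27 and 0.34. The primary tumour values were -0.13, -0.09 and -0.43 under IgG and -0.41, 0.23 and -0.45 under anti-PD-1. *Odc1* was below every T0 library in 23 of 26 (at least 23 for 23.4% of all genes), and all 5 of its sgRNAs were lower by small amounts, from -1.12 to -0.37. The lowest single value outside lymph nodes was -1.84, in liver IgG replicate 3. *Agmat*, which encodes agmatinase, an enzyme of the route from agmatine to putrescine, was at -0.18 (SE 0.43, adjusted p = 0.806). *Azin2*, antizyme inhibitor 2, binds the antizymes that send ornithine decarboxylase to the proteasome. It was at -0.41 (SE 0.48, adjusted p = 0.648), a mean over groups that differed by treatment, as described next for that gene. Of the 15 sgRNAs of these 3 genes 10 were lower, where 78.1% of all sgRNAs of the library were.

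*Sat1*, the spermidine and spermine acetyltransferase that starts polyamine breakdown, was at -0.23 (SE 0.42, adjusted p = 0.761), and *Sat2*, a related acetyltransferase, at -0.13 (SE 0.48, adjusted p = 0.871). *Smox*, spermine oxidase, was at -0.91 (SE 0.61, 95% interval -2.15 to 0.33, adjusted p = 0.444). Its 5 sgRNAs were all lower, from -1.68 to -0.28. *Smox* in primary tumour was at -0.44, 0.02 and -0.11 under IgG and at -0.08, -0.26 and -0.90 under anti-PD-1, against -0.42, -0.05 and 0.10 at T0, so the groups overlapped. In spleen it was lower and more scattered, at -1.69, -3.09 and -1.19 under IgG and at 0.17, -2.39 and -0.62 under anti-PD-1. For *Sat1* 13 of 26 libraries were below every T0 library and 6 above, and for *Sat2* 12 were below and 13 above.

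Taken singly, 35 of the 45 member sgRNAs were lower in the mean of the 10 groups (77.8%), against 78.1% of all sgRNAs of the library. No member sgRNA passed the limma test (8.78% of all sgRNAs were called lower), and 0 of 45 had an unadjusted p under 0.05, against 13.8% of all sgRNAs. The sgRNAs of 1 gene did not always move alike. *Azin2* had the widest range, with s_09329 at -2.60 and s_09326 at 0.84. *Sat2* ran from -1.20 to 1.26 and *Agmat* from -0.92 to 0.78. *Odc1*, *Amd1*, *Srm* and *Smox* were the 4 genes with all 5 sgRNAs lower, and the share of all genes with all 5 lower was not computed.

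Group by group, 5 of the 90 pairs of a member and a group were lower than T0, all in lung, and none was higher. In lung under IgG these were *Amd1* at -3.28 (SE 0.82, adjusted p = 0.00222), *Azin2* at -2.44 (SE 0.64, adjusted p = 0.00334), *Smox* at -2.28 (SE 0.81, adjusted p = 0.0259) and *Srm* at -2.10 (SE 0.82, adjusted p = 0.0425). That is 4 of 9 members, where 38.2% of all genes were lower. In lung under anti-PD-1, *Amd1* was at -2.35 (SE 0.82, adjusted p = 0.0322), 1 of 9 members against 27.3% of all genes. The median of all genes was -1.42 and -1.07 in these groups, and the medians of the members were -1.07 and -0.72. The members as a list were thus not lower than the library in lung.

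The lung calls rested on libraries that stood apart from one another. *Azin2* was at -2.94, -0.26 and -1.93 under IgG and at 0.56, 0.87 and 0.00 under anti-PD-1. *Smox* was at -3.59, -2.56 and -1.08 under IgG and at 0.61, -2.44 and -0.41 under anti-PD-1. *Srm* was at -3.38, -2.38 and 0.00 under IgG and at -3.29, 0.27 and -2.68 under anti-PD-1. For *Srm* 1 library in each lung group was within the range of T0. Without lung IgG replicate 1, *Smox* was at -1.69 (adjusted p = 0.161) and *Srm* at -1.37 (adjusted p = 0.26). *Smox* was also lost without lung IgG replicate 2 or T0 replicates 2 or 3 (adjusted p from 0.0565 to 0.0765), and *Srm* without lung IgG replicate 2 or any T0 library (0.071 to 0.107). Without lung anti-PD-1 replicate 3, *Amd1* in that group was at -1.22 (adjusted p = 0.262), and without any 1 of the T0 libraries its adjusted p was 0.0628 to 0.0926. With the mean of the nontargeting sgRNAs in place of their median none of the 5 pairs passed, and *Amd1* and *Azin2* under IgG were then at -2.09 (adjusted p = 0.0542) and -1.25 (adjusted p = 0.173). Between 10.5% and 42.6% of all sgRNAs of a lung library lay at their own shared lowest signal. Of the 30 sgRNA values of each gene in lung, *Amd1* had 9 there, *Srm* 10, *Smox* 7 and *Azin2* 4. The *Amd1* value of -4.67 in lung IgG replicate 1 averaged sgRNAs at -6.4, -6.11, -6.41 and -6.52 with s_00258 at 2.11. The part of these lowest signals in the calls was not tested.

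Outside lung no member passed against T0 (0 of 72 pairs by limma, 6 of which had an unadjusted p under 0.05, all lower). The share of all genes with an unadjusted p under 0.05 in these groups was not computed. The called shares of all genes lower there were 13.8% and 14% in primary tumour under IgG and anti-PD-1, 13.1% and 9% in liver, 14.3% and 16.1% in peritoneal metastases and 14.4% and 15.6% in spleen. The nearest were *Amd1* in peritoneal metastases under anti-PD-1 at -2.14 (adjusted p = 0.0821) and *Srm* in spleen under anti-PD-1 at -2.10 (adjusted p = 0.0881). In both, all 3 libraries lay below every T0 library, which held for 37.8% and 40.1% of all genes in these groups.

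Over the 5 organs, no member passed a moderated F-test for a difference in level between organs (0 of 9, against 3.71% of all genes). *Azin2* had the smallest adjusted p, at 0.191, and was the 1 member with an unadjusted p under 0.05. In pairs of organs, *Azin2* was higher in primary tumour than in lung by 1.30 (SE 0.45, adjusted p = 0.0439) and *Sat2* by 1.23 (SE 0.45, adjusted p = 0.0497), 2 of 9 members where 20.5% of all genes were higher in that pair.

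By treatment, *Azin2* was the member that differed outside lymph nodes. Its sgRNAs were more abundant under anti-PD-1 than under IgG by 1.43 in the mean of the 5 organs (SE 0.33, 95% interval 0.76 to 2.09, adjusted p = 0.0331). The test called 7 genes higher (0.337%) and 3 lower (0.144%) under anti-PD-1, and *Azin2* ranked 2074 of 2078 from the lowest change. The other 8 members lay between -0.37 for *Srm* and 0.44 for *Sms*, with adjusted p of 0.465 and above.

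In primary tumour, *Azin2* was at 0.39, 0.92 and -0.58 under IgG and at 0.51, 1.02 and 1.85 under anti-PD-1. In spleen it was at 0.69, -0.16 and -0.02 under IgG and at 0.90, -0.25 and 1.38 under anti-PD-1. The groups overlapped in these 2 organs. In peritoneal metastases it was at 0.45 and -1.40 under IgG and at 0.76, 0.66 and 1.21 under anti-PD-1, and in liver at 0.27 and -0.70 under IgG and at 2.01 in the single anti-PD-1 library. Here, and in lung, every anti-PD-1 library lay above every IgG library. That was so for 11.4% of all genes in peritoneal metastases, 42.2% in liver, where 1 library stands against 2, and 6.5% in lung, and in at least 3 of the 5 organs for 2.79%. Of the other members, *Sms* had such a gap in 2 organs and *Odc1*, *Agmat*, *Amd1*, *Sat1* and *Sat2* in 1 each, while *Srm* had the opposite one in 2. For *Srm* these were liver and peritoneal metastases. The shares of all genes with a gap in 1 or 2 organs, or with the opposite gap, were not computed. *Azin2* at T0 stood at 0.79, 0.85 and 0.54. The T0 mean of 0.73 lay between the means of the treatments in primary tumour, liver and peritoneal metastases, and above both in lung and spleen.

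The *Azin2* difference was 2.19 in lung (SE 0.64, adjusted p = 0.0726), 2.22 in liver (SE 0.96, adjusted p = 0.997), 1.35 in peritoneal metastases (SE 0.72, adjusted p = 0.995), 0.88 in primary tumour (SE 0.64, adjusted p = 1) and 0.50 in spleen (SE 0.64, adjusted p = 0.931). No single organ passed the test, for *Azin2* or any other member, and 4 of these 45 pairs of a member and an organ had an unadjusted p under 0.05, all higher under anti-PD-1. The share of all genes with such a p was not computed. In lung, 1.25% of all genes passed as higher and 0.433% as lower, and in the other 4 organs no gene did. *Azin2* was higher in 5 of 5 organs, which held for 9.82% of all genes, and in 11 of 12 pairs of libraries with the same organ and number (at least 11 for 1.92%). The size of these pair differences varied by number, with means of 1.28 in replicate 1, 0.33 in replicate 2 and 2.21 in replicate 3. Outside lung, the pairs of replicates 1 and 2 lay between -0.10 and 0.21, and those of replicate 3 between 1.40 and 2.70. In lung the pairs of replicates 1, 2 and 3 were 3.50, 1.13 and 1.93. A test for unequal treatment differences between organs gave F = 1.21 for *Azin2* (adjusted p = 0.999).

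All 5 *Azin2* sgRNAs were higher under anti-PD-1, by 2.28, 0.86, 1.29, 2.02 and 0.69 for s_09326 to s_09330. Of these, 2 had an unadjusted p under 0.05, and none passed over all sgRNAs (adjusted p = 0.101 for the smallest, where 0.654% of all sgRNAs were called higher). In group means s_09326 was higher in every organ, by 2.53 in primary tumour, 2.37 in lung, 3.31 in liver, 2.13 in peritoneal metastases and 1.04 in spleen. Its replicate 1 pairs went the other way. Under IgG and anti-PD-1 they were 0.86 and 0.69 in primary tumour, 1.94 and 1.31 in lung and 1.73 and 0.44 in spleen. Replicate 2 was higher under anti-PD-1 in these organs, and replicate 3 rose most. The replicate 3 pairs were -0.71 and 5.04 in primary tumour, -3.58 and 3.58 in lung and 0.27 and 4.3 in spleen. The sgRNA s_09327 was lower in lung, by -0.89. *Agmat*, the other putrescine gene with all 5 sgRNAs on the positive side, had small differences, from 0.21 to 0.56, and a gene difference of 0.36 (SE 0.29, adjusted p = 0.633). The share of all genes with all 5 sgRNAs higher under anti-PD-1 was not computed.

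With each of the 29 libraries left out in turn, the *Azin2* treatment call was lost in 12 cases, with differences between 1.23 and 1.44 and adjusted p between 0.0502 and 0.139. These were primary tumour IgG replicates 1 and 3 and anti-PD-1 replicates 2 and 3, spleen IgG replicate 2 and anti-PD-1 replicate 3, peritoneal metastases IgG replicate 3 and anti-PD-1 replicates 1 and 3, lung anti-PD-1 replicate 1, and both replicate 3 libraries of liver, of which the anti-PD-1 library is the organ's 1 treated library, so the mean without it is over 4 organs. Without the lung groups the difference was 1.24 (adjusted p = 0.0753). The call was also lost with all libraries in 1 fit (adjusted p = 1), the sgRNA median (0.278), uncentred values (0.105), a fit of the treated and control groups alone (0.077) and lowest values set to 0 (0.0645). Its sign held in all of these.

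In the lymph nodes every member was above T0 on this scale, but so was the library as a whole. The median of all genes was 2.08 and 1.95 in draining nodes under IgG and anti-PD-1, and 1.37 and 1.49 in nondraining nodes. The medians of the members were 2.33, 2.31, 1.84 and 2.14. Of the 36 pairs of a member and a node group 7 passed. In draining nodes these were *Agmat* at 4.29 (adjusted p = 0.00185), *Azin2* at 4.11 (adjusted p = 0.00791) and *Smox* at 2.50 (adjusted p = 0.0354) under IgG, 3 of 9 members where 35% of all genes were higher. Under anti-PD-1 they were *Odc1* at 4.21 (adjusted p = 0.011), *Azin2* at 3.83 (adjusted p = 0.0123) and *Smox* at 3.79 (adjusted p = 0.00463), 3 of 9 against 28.2%. In nondraining nodes *Azin2* passed under anti-PD-1 at 4.22 (adjusted p = 0.016), 1 of 9 against 8.95%, and none passed under IgG, where 6.74% of all genes did.

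With the deposited values left uncentred, all 7 of these changes turned negative, between -4.81 and -2.97, so their direction depends on the centring. The nontargeting median that was subtracted lay between 0 and 1.26 in the node libraries, as log2(signal + 1). In the other libraries it lay between 6.7 and 8.22. The centre of a node library was thus itself near the lowest signal. Replicate 3 of the node group in question carried 4 of the calls. Without it, *Azin2* was at 2.13 in draining IgG (adjusted p = 0.202), at 3.31 in draining anti-PD-1 (0.0958) and at 2.70 in nondraining anti-PD-1 (0.376), and *Odc1* at 2.71 (0.184). *Smox* under IgG was lost without any 1 T0 library or draining IgG replicates 1 or 3 (adjusted p from 0.0704 to 0.096), and *Azin2* in nondraining nodes without any 1 T0 library (0.0637 to 0.0757). *Azin2* was at 1.75, 3.96 and 8.79 in draining nodes under IgG and at 4.35, 3.73 and 5.58 under anti-PD-1. In nondraining nodes it was at 2.34, 2.12 and 3.24 under IgG and at 4.89, 1.96 and 8.01 under anti-PD-1. Of its 60 sgRNA values in the nodes 28 were at the shared lowest signal, the fewest of the 9 members, and for *Sat1* 45 were. By treatment, *Agmat* was lower under anti-PD-1 in draining nodes by -4.00 (SE 0.94, adjusted p = 0.0228), 1 of 9 members where 0.385% of all genes were lower. Its values there were 5.26, 2.09 and 7.59 under IgG and 0.20, 0.15 and 2.59 under anti-PD-1, so a library of each group overlapped with the other. The call was lost without draining IgG replicate 3 (-2.70, adjusted p = 0.137) or anti-PD-1 replicate 2 (-3.58, adjusted p = 0.114). In nondraining nodes no member differed by treatment, against 0.0481% of all genes lower and 0.241% higher.

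Genes around the pathway were read from lists of known function. The list for the supply of S-adenosylmethionine, the substrate of *Amd1*, and for methionine salvage held 10 genes. It also took in *Ahcy*, which acts after methyl transfer. Of the 10 genes, 2 were lower in the mean of the 10 groups and none was higher, with a median of -0.44. Over all genes 17.7% were lower there and the median was -0.55, and no median of the 3 lists was lower than that. *Mat2a*, the S-adenosylmethionine synthetase of most tissues, was at -6.53 (SE 0.51, adjusted p = 7.49e-12). *Ahcy*, which clears S-adenosylhomocysteine after methyl transfer, was at -6.14 (SE 0.53, adjusted p = 7.06e-11). Both lay below every T0 library in 26 of 26 libraries, which held for 16.2% of all genes. The role given for *Ahcy* lies in methylation, which *Mat2a* also serves and which does not pass through *Amd1*. Of 9 genes that make or use ornithine, none passed in either direction, with a median of -0.43. Of 14 genes of polyamine transport, antizyme control and terminal oxidation, 7 were in the library and 1 was lower, *Slc3a2* at -3.61 (SE 0.54, adjusted p = 2.14e-06), the heavy chain shared by several amino acid transporters. The median of that list was -0.41. In the mean treatment difference of the 5 organs none of the listed genes passed other than *Azin2* itself, which is on the last list.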

How the data were processed

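Sorted T cells of 43 samples were sequenced at their integrated sgRNAs, and 41 libraries had values. The authors counted sgRNAs with MAGeCK, normalised to the nontargeting sgRNAs and applied ComBat for batch effects between organs, with settings not given in the sources used here. The deposited values are thus a normalised signal, not whole counts, so no count model was run, nor the MAGeCK mle step of the methods. ComBat across organs may have moved levels in every organ. The lowest signals, however, could be equal across organs and differ between replicate numbers. For s_02417, for example, lung and nondraining lymph nodes under IgG were both at 1.363 in replicate 1. Nondraining lymph nodes under IgG were at 0.6418 in replicate 2 and 0 in replicate 3. Which batches were corrected is thus not settled here.

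Here the signal was turned into log2(signal + 1), centred on the nontargeting median of each library and averaged over the sgRNAs of a gene. limma 3.58.1 in R 4.3.3 fitted 1 mean per group. The 29 libraries outside lymph nodes formed one fit and all 41 libraries another, which gave the lymph node results. Adjusted p-values at or below 0.05 passed. Intervals are 95%. The script was tested on simulated data. The methods state 3 independent sequencing runs, and each replicate number has its own T0 library. Whether the numbers are these runs is not stated. The replicate numbers were not taken as pairing the libraries, since not every correlation of same-numbered libraries passed 0.1. That rule asked it of every correlation, so it cannot decide whether same-numbered libraries share a run. The members, gene lists and tests were chosen with earlier results of these data known. Named genes were all members, and from the other lists those that passed in the mean of the 10 groups. Alternatives were a pseudocount of 10, the sgRNA median, 3 other centrings, a filter on the lowest 10% of sgRNAs, lowest values set to 0, a replicate block, other choices of libraries in the fit, library weights and each library left out. The choice to leave out lung was added after seeing the data. sgRNA positions were matched to GRCm38.p6.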

Additional observations from a re-analysis of the deposited data

Results flagged for a closer look

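3 differences passed the limma test (adjusted over all genes) in direct comparisons of 1 organ with another, each organ taken as the mean of its treatment groups. The primary tumour and lung pair came from the fit outside lymph nodes, and the node pair from the fit of all libraries. *Azin2* was higher in primary tumour than in lung by 1.30 (adjusted p = 0.0439), and *Sat2* by 1.23 (adjusted p = 0.0497), both just inside the threshold and with 426 genes higher in the same pair. *Smox* was higher in draining than in nondraining lymph nodes by 2.42 (SE 0.66, adjusted p = 0.0336), where 2.55% of all genes were higher, and 44 of its 60 sgRNA values in the nodes were at the shared lowest signal.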

How the results depend on the processing

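The negative sign of *Amd1* and the positive treatment sign of *Azin2* held in every setting tried, but their calls did not. The number of members lower over the 10 groups (1) was 0 with the sgRNA median, the nontargeting mean, the median of all sgRNAs, the filter on low sgRNAs, lowest values set to 0, all libraries in 1 fit and the replicate block (*Amd1* -1.73, adjusted p = 0.0575). It was 2 with the values as deposited, 5 with library weights and 0 to 1 with each library left out. Of all 2078 genes, 671 were lower with the values as deposited and 1154 with library weights, against 368 in the main setting. The rise in these 2 settings was thus shared by the library as a whole. The block changed no other call, and with it 5 pairs were lower. Same-numbered libraries correlated between -0.356 and 0.269 in their deviations, with 39 of 118 correlations over 0.1, against 18 of 234 between different numbers. 21 of 28 libraries correlated best with their own number, a pattern in the data whose basis in the design is not stated. Pairs lower (5) numbered 1 with the sgRNA median or all libraries in 1 fit, 0 with the nontargeting mean, 2 with the median of all sgRNAs, 3 with the filter, 15 as deposited, again 15 when each fit held just its own groups, and 14 when libraries were weighted, and 2 to 7 with each library left out. Pairs higher (0) numbered 3 with only the groups compared. Members differing by treatment (1) numbered 0 with the sgRNA median, as deposited, with lowest values set to 0, all libraries in 1 fit, only the groups compared or without lung, and 0 to 1 with each library left out. Members differing between organs (0) numbered 0 to 1, with 1 only without lung IgG replicate 3. Lymph node pairs (7) numbered 1 with the sgRNA median, 36 as deposited, 0 with the nontargeting mean, 3 when each fit held just its own groups and 11 with weights, and 5 to 10 with each library left out. The lymph node treatment call (1) was lost (0) with only the groups compared or library weights, and ranged from 0 (without draining anti-PD-1 replicate 2) to 3 (without nondraining anti-PD-1 replicate 1) with each library left out. Member sgRNAs lower (0) numbered 12 with library weights. The cause of these shifts was not tested.

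Signs that turned were all of values that had not passed, outside lymph nodes. The mean of *Sat2* was 0.06 with a pseudocount of 10 and without lung, 0.55 with the sgRNA median, 0.28 with the nontargeting mean and 0.25 with the median of all sgRNAs. In the last 3 settings *Agmat* was 0.14, 0.23 and 0.20, and in the last 2 *Sat1* was 0.18 and 0.16. *Azin2* was 0 with the nontargeting mean. With values as deposited, the lymph node changes turned to -3.02 for *Agmat*, -3.21 for *Azin2* and -4.81 for *Smox* in draining nodes under IgG, to -3.36 for *Azin2*, -2.97 for *Odc1* and -3.40 for *Smox* under anti-PD-1, and to -3.15 for *Azin2* in nondraining nodes. Centring moved the median of all genes from -0.55 to -1.14 as deposited and to -0.14 with the nontargeting mean. Depth per library is unknown, and liver under anti-PD-1 has 1 library.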
